A study of Mus musculus with 6 samples.

Results

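Secreted antagonists of BMPs and activins were described through 9 genes, Grem1, Nog, Chrd, Chrdl1, Twsg1, Fst, Fstl1, Smoc1 and Smoc2, which were taken by symbol from the authors' table of 49548 genes. Each symbol matched 1 row, and all 9 belonged to the 26402 genes tested, those whose normalized counts summed to at least 1. The 6 libraries were 3′ mRNA sequencing of cancer-associated fibroblasts (CAFs) sorted from colonic adenomas, with 3 from the GFP+ subset (Col6a1+ CAFs) and 3 from the Tomato+ subset (Col6a1- CAFs). All came from C57/BL6 mice of the genotype Col6a1-cre, Rosa26-mTmG, in which Cre switches a membrane Tomato reporter to GFP, and all mice had received AOM/DSS, the carcinogen azoxymethane with dextran sulfate sodium. Both subsets were negative for CD45, EpCAM, CD31 and Ter119, and each library held pooled tumors of several mice. As the study describes the strain, Col6a1Cre marks PDGFRα-high fibroblasts together with pericytes, and the GFP-negative remainder includes trophocytes and most PDGFRα-low fibroblasts, so neither subset is a single cell type.

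BMPs are secreted ligands that bind type I and type II serine/threonine kinase receptors and act through Smad proteins. In the colon their signalling is low at the crypt base, where stem cells divide, and high towards the surface, where epithelial cells differentiate. Stromal cells shape this gradient, since they release BMP ligands as well as extracellular proteins that bind the ligands or hinder their signalling. Activins are related ligands, and follistatin is their best known binding protein.

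Each library held between 3039152 and 3425249 normalized counts in all, and between 14530 and 20511 genes were detected, the fewest in Col6a1+ replicate 1. The cells were sorted by the GFP and Tomato reporters, not by Col6a1 itself. Col6a1 had 861, 1287 and 1941 normalized counts in Col6a1+ CAFs and 182, 321 and 102 in Col6a1- CAFs. It was higher in Col6a1+ CAFs (log2 fold change 2.82, standard error 0.44, limma adjusted p = 0.00613, or 0.0983 in a blocked fit that holds the replicate number). Of 6 pan-fibroblast markers 3 were higher in Col6a1+ CAFs, with summed normalized counts of 39390 to 43877 against 8472 to 15422. The 7 pericyte markers were all higher (41437 to 90948 against 1147 to 2141), as were 5 of 6 smooth muscle markers (12262 to 24902 against 467 to 2233). Although EpCAM+ cells had been gated out, epithelial markers were present in every library. Their sums were 5524 to 6159 in Col6a1+ CAFs and 19525 to 31310 in Col6a1- CAFs, with 6 of 9 lower in Col6a1+ CAFs. Immune markers (7 genes tested) summed to 29 to 75 and 123 to 305, with the defining gene Ptprc at 0 to 2 and 3 to 8. Endothelial markers (6 genes) summed to 64 to 164 and 128 to 313, and 0 genes of either list passed the test (limma), with an unadjusted p under 0.05 for 3 immune and 2 endothelial genes. Erythroid (110 to 1710 and 279 to 467), glial (50 to 73 and 19 to 52) and mesothelial markers (1 to 7 and 7 to 33) had 0 calls as well, with 0, 1 and 1 genes at that unadjusted p. The PDGFRα-high fibroblast list had 4 of 6 markers higher in Col6a1+ CAFs (2236 to 3694 against 906 to 1069), and the 2 markers of interstitial cells of Cajal went apart. Of these, Ano1 was called higher (292 to 564 against 73 to 151), and Kit had 0, 0 and 5 against 15, 12 and 14 normalized counts without being called (limma adjusted p = 0.16).

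The antagonists did not move as a group. Fstl1 was 7.27-fold higher and Smoc2 12.0-fold lower in Col6a1+ CAFs, while Grem1, the classical antagonist of the crypt base stroma, was 2.07-fold apart with the higher values in Col6a1- CAFs and did not pass the test. The log2 fold change (log2FC) is the difference of mean log2(normalized count + 1), Col6a1+ less Col6a1-, given with its standard error (SE), and a gene was called at a limma adjusted p under 0.05 over all genes tested. Of the 9 antagonists 1 was called higher and 1 lower, where 2.66% of all genes tested were called higher and 1.96% lower. The other 7 were not called, and the median log2FC was 0.08 over the 9 genes and -0.27 over all genes. The 3 libraries of the subsets did not overlap for Fstl1 and Smoc1, both higher in Col6a1+ CAFs, and for Smoc2, Fst and Grem1, all lower. Of all genes tested 7.91% were higher without overlap and 11.6% lower. At an unadjusted p under 0.05 with a log2FC beyond 1 in either direction, 2 antagonists were higher and 3 lower, where 6.09% of all genes tested were higher and 8.61% lower. In bulk libraries, fewer cells that express a gene and less RNA per cell cannot be told apart.

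**Figure D1:**
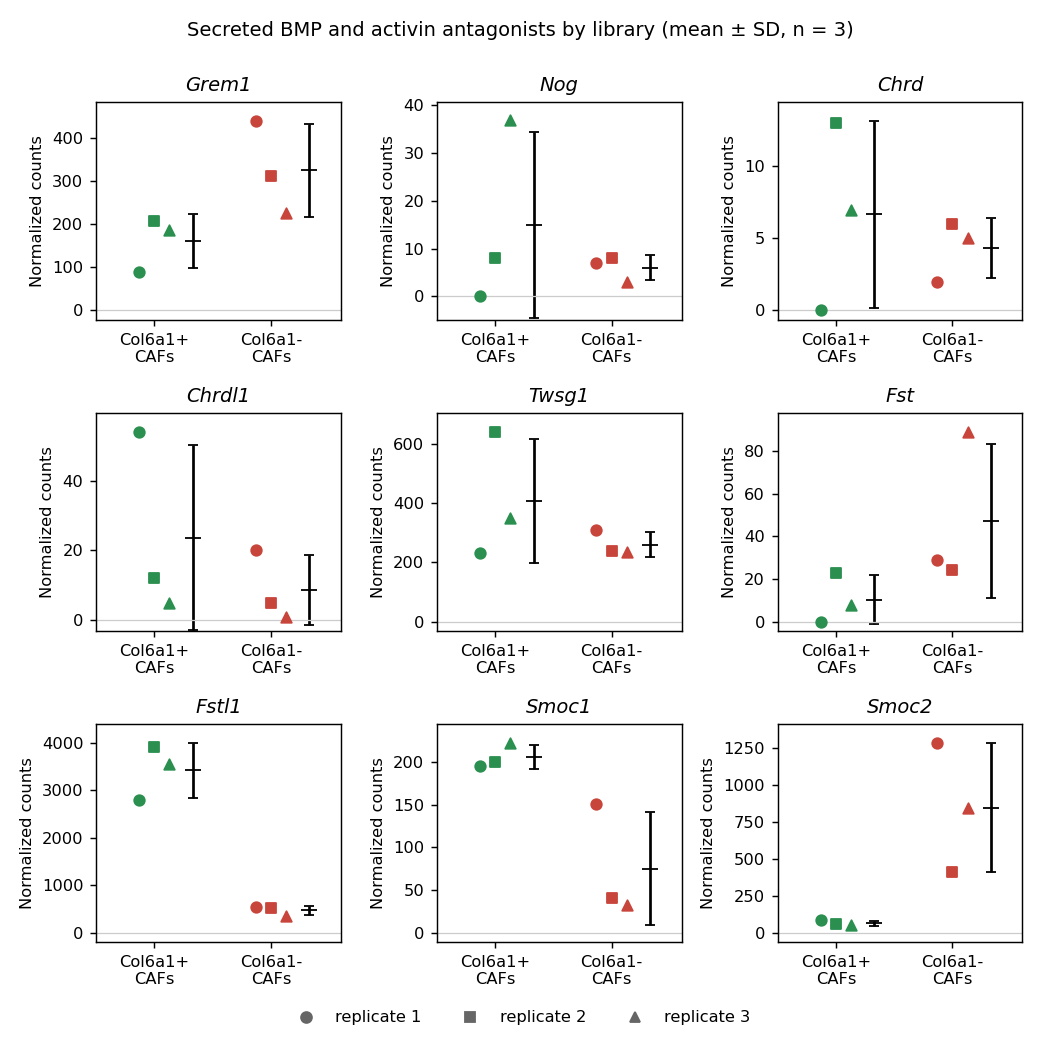
Normalized counts (linear axes) of the 9 antagonists in each library of Col6a1+ (green) and Col6a1- (red) CAFs, with markers for the replicate number and the mean ± SD (n = 3) in black, which can reach below 0. Fstl1 lay between 2790 and 3914 in Col6a1+ CAFs and between 362 and 532 in Col6a1- CAFs, and Smoc2 between 49 and 83 and between 409 and 1281.

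Grem1 (ENSMUSG00000074934, chromosome 2 from 113746164 to 113758646 of mm10, minus strand) encodes gremlin 1, a protein of the DAN family that binds BMP2, BMP4 and BMP7. It had 89, 208 and 186 normalized counts in Col6a1+ replicates 1 to 3, and 440, 311 and 225 in Col6a1- replicates 1 to 3. Every Col6a1- library was therefore above every Col6a1+ library, with the closest values at 208 and 225. The means were 161 ± 63.3 and 325.3 ± 108 (SD, n = 3 each). The log2FC of -1.05 (SE 0.41) had an unadjusted p of 0.0278 and a limma adjusted p of 0.222, and it was not called under any of 15 other fits (adjusted p from 0.144 to 0.692). By replicate number, the difference was -2.29, -0.58 and -0.27 on the log2 scale, so most of it was seen in the replicates numbered 1. Without Col6a1+ replicate 1 the log2FC was -0.67.

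Grem1 is shown with its promoter because its window holds a GC-rich element, GGCGCC, known to bind Smads in BMP-responsive genes. The sequence runs from 250 bases before to 50 bases after the RefSeq start (GRCm38.p6, chr2:113758599-113758898, minus strand), in capitals from the start onwards.

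Grem1: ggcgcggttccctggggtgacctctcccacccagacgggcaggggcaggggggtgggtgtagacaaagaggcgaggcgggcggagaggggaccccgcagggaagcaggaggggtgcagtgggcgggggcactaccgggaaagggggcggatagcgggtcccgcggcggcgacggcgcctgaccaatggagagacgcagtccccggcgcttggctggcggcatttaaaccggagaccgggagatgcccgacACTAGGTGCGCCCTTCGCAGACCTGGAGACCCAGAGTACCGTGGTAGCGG

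The element begins 78 bases before the start. On either strand, GGCGCC was found in 11.9% of 32851 promoter windows of this length. Of the 9 antagonists, 4 had a window in the RefSeq table (Grem1, Chrd, Fstl1 and Twsg1), and 2 of these, Grem1 and Chrd, held 1 match each. None of the 4 windows held the RBPJ core TGGGAA, the TEAD core GGAATG, the AP-1 site TGANTCA or TATAAA, which occurred in 25.6%, 14.7%, 7.81% and 13.6% of all windows. The 4 windows were 66.7% to 78.3% G and C, against a median of 52.7% over all windows, and the shares given were not adjusted for this. These are matches of letters only.

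Nog (ENSMUSG00000048616, chromosome 11 from 89300638 to 89302332) encodes noggin, which wraps around BMP dimers and blocks both receptor sites. Its normalized counts were 0, 8 and 37 in Col6a1+ CAFs and 7, 8 and 3 in Col6a1- CAFs. These low values overlapped and spread most within Col6a1+ CAFs. The log2FC was 0.08 (SE 1.32, limma adjusted p = 0.992), and its sign depended on the fit. If a value of 0 allows up to 3 normalized counts, noggin's level in Col6a1+ replicate 1 was not distinguishable from that of Col6a1- replicate 3. The scaling from raw counts is unknown, so this limit is approximate. Without Col6a1+ replicate 1 the log2FC was 1.49, and without Col6a1+ replicate 3 it was -1.14.

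Chrd (ENSMUSG00000006958, chromosome 16 from 20733127 to 20742384) encodes chordin, which holds BMPs until tolloid proteases cut it. It was the least abundant of the antagonists, with 0, 13 and 7 normalized counts in Col6a1+ CAFs and 2, 6 and 5 in Col6a1- CAFs. The subsets overlapped, and no difference was detectable at this depth (log2FC -0.06, SE 1.17, limma adjusted p = 0.999). Without Col6a1+ replicate 1 the log2FC was 1.08. Chrd overlaps Thpo on the other strand, which had 0 to 13 normalized counts. The genes share only their 5′ ends, and the libraries are of 3′ mRNA. The sources used here do not state whether reads were counted by strand, which leaves the counts of Chrd uncertain.

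Chrdl1 (ENSMUSG00000031283, chromosome X from 143285674 to 143394262) encodes chordin-like 1, a BMP-binding relative of chordin. It had 54, 12 and 5 normalized counts in Col6a1+ CAFs and 20, 5 and 1 in Col6a1- CAFs. The subsets overlapped, but within each replicate number the Col6a1+ library was the higher one, by 1.39, 1.12 and 1.59 on the log2 scale. The log2FC of 1.36 (SE 1.18) was not called (limma adjusted p = 0.607). With the block its unadjusted p was 0.0891 and its adjusted p 0.379. When 1 library was left out, the log2FC ranged from 0.48 to 2.23.

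Twsg1 (ENSMUSG00000024098, chromosome 17 from 65923066 to 65951187) encodes twisted gastrulation, which joins chordin and BMP in a complex and can either strengthen or relieve the inhibition. Its normalized counts were 231, 639 and 349 in Col6a1+ CAFs and 307, 239 and 233 in Col6a1- CAFs. Here 1 Col6a1+ library, replicate 1, was below all Col6a1- libraries, and the other two were above them. The means were 406.3 ± 210 and 259.7 ± 41.1 (SD, n = 3 each), with a log2FC of 0.53 (SE 0.39, limma adjusted p = 0.578). Without Col6a1+ replicate 2 the log2FC was 0.14.

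Fst (ENSMUSG00000021765, chromosome 13 from 114452262 to 114458730) encodes follistatin, which binds activins nearly irreversibly and BMPs more weakly. Col6a1+ CAFs had 0, 23 and 8 normalized counts and Col6a1- CAFs 29, 24 and 89. The subsets did not overlap, but 23 in Col6a1+ replicate 2 and 24 in Col6a1- replicate 2 were nearly equal. The log2FC was -2.76 (SE 1.15) with an unadjusted p of 0.0366 and a limma adjusted p of 0.261, and it was not called in any of the 15 other fits. It was -1.47 without Col6a1+ replicate 1, in which Fst, Nog and Chrd were at 0, whereas none of the 9 genes was at 0 in the other 5 libraries. Among the ligands that follistatin binds, the activin subunit gene Inhba had 20, 251 and 194 normalized counts in Col6a1+ CAFs and 7, 27 and 167 in Col6a1- CAFs. Inhba, chosen after its values were seen, was not called either (log2FC 1.59, SE 1.13, limma adjusted p = 0.561). It was higher in Col6a1+ CAFs in all 3 pairs, by 1.39, 3.17 and 0.21 on the log2 scale, with an unadjusted p of 0.062 in the blocked fit. Its log2FC was 0.56 without Col6a1- replicate 1, 0.93 without Col6a1+ replicate 2, 2.73 without Col6a1+ replicate 1 and 2.75 without Col6a1- replicate 3.

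Fstl1 (ENSMUSG00000022816, chromosome 16 from 37776873 to 37836514, plus strand) encodes follistatin-like 1, a mesenchymal glycoprotein with a follistatin domain that has been reported to lower BMP4 signalling. It had 2790, 3914 and 3548 normalized counts in Col6a1+ CAFs and 532, 520 and 362 in Col6a1- CAFs. The gap between the subsets was far wider than the spread within either. The means were 3417 ± 573 and 471.3 ± 94.9 (SD, n = 3 each), and the log2FC of 2.86 (SE 0.28) had a limma adjusted p of 8.62e-04. It had the 27th smallest p of all genes tested. In the blocked fit, which holds the replicate number, the adjusted p was 0.0612, which was also the smallest adjusted p of any gene in that fit, and with the block over genes with a mean of at least 10 it was 0.00126. The pairs differed by 2.39, 2.91 and 3.29 on the log2 scale. Fstl1 was called in 9 of 15 other fits (adjusted p from 9.9e-05 to 0.14). Its log2FC stayed between 2.68 and 3.00 when 1 library was left out, but the call was lost without any 1 of the Col6a1+ libraries or without Col6a1- replicate 1. The pericyte, smooth muscle, pan-fibroblast and PDGFRα-high fibroblast sums given above moved in the same direction, and their part in the result was not tested.

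The promoter window of Fstl1, the 1 called antagonist with an entry in the RefSeq table, is given in the same form (GRCm38.p6, chr16:37776805-37777104, plus strand, capitals from the RefSeq start onwards). It is rich in G and C (66.7%, against a median of 52.7% over the windows).

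Fstl1: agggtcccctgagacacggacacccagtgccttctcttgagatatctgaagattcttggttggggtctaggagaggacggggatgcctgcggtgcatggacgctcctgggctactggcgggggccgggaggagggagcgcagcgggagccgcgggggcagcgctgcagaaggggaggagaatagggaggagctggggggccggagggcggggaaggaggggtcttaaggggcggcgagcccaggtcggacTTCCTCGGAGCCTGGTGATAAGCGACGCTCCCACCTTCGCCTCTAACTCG

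Smoc1 and Smoc2 encode paralogous calcium-binding matrix proteins of the SPARC family, both reported to inhibit BMP signalling, and Smoc2 is also a known marker of epithelial stem cells at the crypt base. Smoc1 (ENSMUSG00000021136, chromosome 12 from 81026808 to 81186414) had 195, 200 and 222 normalized counts in Col6a1+ CAFs and 151, 41 and 33 in Col6a1- CAFs. The Col6a1+ libraries were nearly alike, and the Col6a1- libraries all lay below them with replicate 1 nearest. The log2FC of 1.78 (SE 0.54) was not called (limma adjusted p = 0.0992). It was called with array quality weights (adjusted p = 0.0334) and in the blocked fit over genes averaging at least 10 counts (adjusted p = 0.0491). Over the 15 other fits this p ran from 0.0334 to 0.511. By replicate number the differences were 0.37, 2.26 and 2.71. Without Col6a1- replicate 1 the log2FC was 2.45.

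Smoc2 (ENSMUSG00000023886, chromosome 17 from 14279506 to 14404790) had 83, 60 and 49 normalized counts in Col6a1+ CAFs and 1281, 409 and 840 in Col6a1- CAFs. The lowest Col6a1- library was well above the highest Col6a1+ library. The means were 64 ± 17.4 and 843.3 ± 436 (SD, n = 3 each), a log2FC of -3.58 (SE 0.43, limma adjusted p = 0.00191). It was lower in all 3 pairs, with differences of -3.93, -2.75 and -4.07 on the log2 scale. With the block its adjusted p was 0.0612, and with the block over genes with a mean of at least 10 it was 0.00153. Smoc2 was called in 8 of 15 other fits (adjusted p from 3.02e-04 to 0.15). Leaving out 1 library moved its log2FC between -4.03 and -3.21, and the call was kept without Col6a1- replicate 2 and lost without any other library. Of the 8 antagonists with a mean of at least 10, the blocked fit over such genes called 2 higher (Fstl1 and Smoc1) and 1 lower (Smoc2), where it called 7.26% of all its genes higher and 6.44% lower.

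Smoc1 and Smoc2 thus had a log2FC of opposite sign. Beside Smoc2, the epithelial marker sum was also higher in each Col6a1- library. Within Col6a1- CAFs, replicates 1 to 3 had 1281, 409 and 840 normalized counts of Smoc2 and epithelial sums of 19525, 31310 and 23082. Of these sums, Cdh1 alone gave 10493, 15452 and 11963. Foxa2, among the genes most like Smoc2 (below), had 364, 112 and 326 in the same libraries. The sum of 5 trophocyte and adventitial markers was 936 to 1895 in Col6a1+ CAFs and 2459 to 4133 in Col6a1- CAFs. Most of it was Ly6a, with 781, 1613 and 1585 against 1792, 3233 and 1598 normalized counts. Ly6a overlapped between the subsets and was not called (limma adjusted p = 0.379). Cd81 and Cd34 were called lower in Col6a1+ CAFs, and Pi16 and Ackr4 were not called. The part of either cell type in the level of Smoc2 was not tested.

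**Figure D2:**
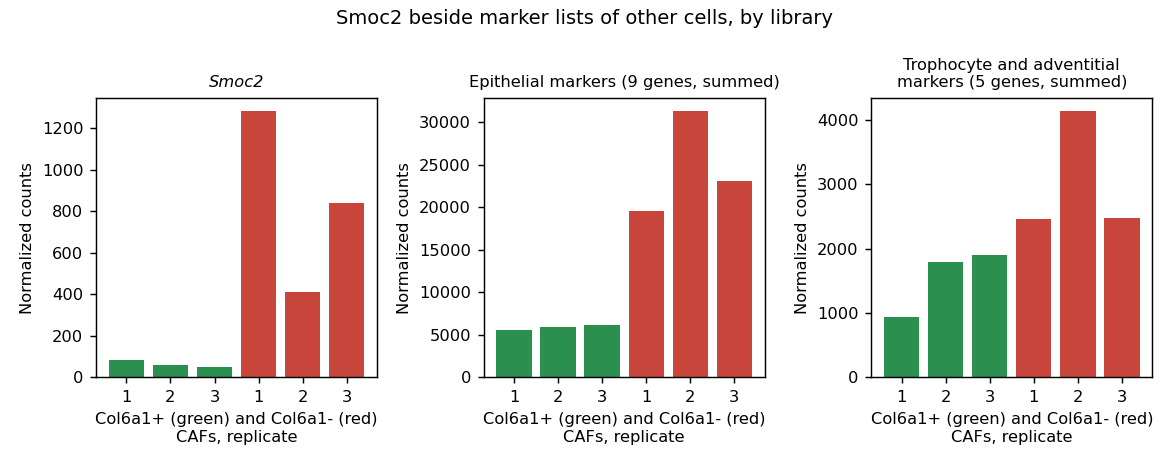
Normalized counts of Smoc2 (left), of 9 epithelial markers summed (middle) and of 5 trophocyte and adventitial markers summed (right) in each library, as bars from 0 for Col6a1+ (green) and Col6a1- (red) CAFs. Each is higher in the Col6a1- libraries, with Smoc2 at 409 to 1281, the epithelial sum at 19525 to 31310 and the trophocyte and adventitial sum at 2459 to 4133. Most of the last sum is Ly6a.

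**Figure D3:**
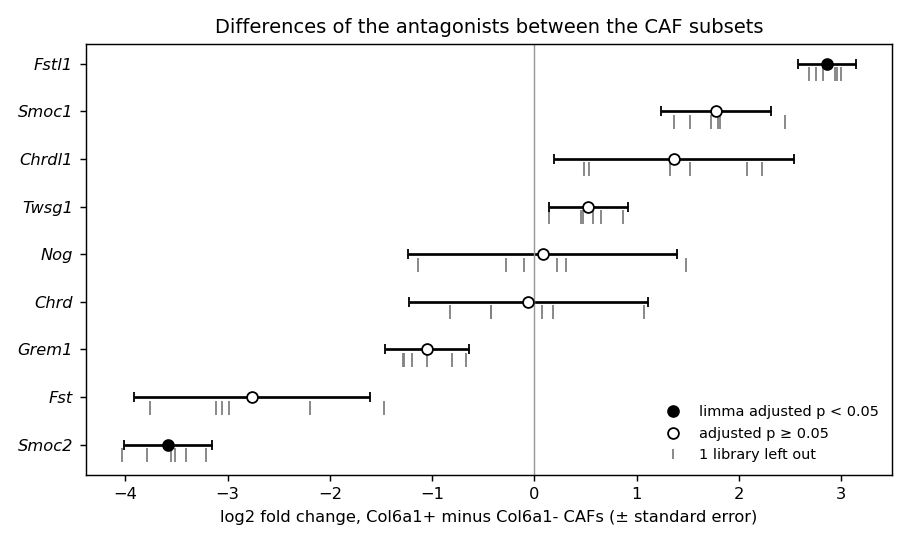
Log2 fold changes of the 9 antagonists (points, Col6a1+ minus Col6a1- CAFs) with their SE, filled where the limma adjusted p is under 0.05, and grey ticks for each fit that left out 1 library. Fstl1 (2.86) and Smoc2 (-3.58) are filled, and the ticks of Nog and Chrd lie on both sides of 0.

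The other extracellular modulators that were higher in Col6a1+ CAFs included Nbl1 and Crim1. Of 17 genes listed 13 were tested, 3 were called higher and 0 lower (limma, with an unadjusted p under 0.05 for 7 genes), and the median log2FC was 1.22. Nbl1, which encodes another DAN family protein, was the most abundant of this list and had 830, 1668 and 2358 against 291, 330 and 218 normalized counts. Crim1, a membrane protein with chordin-like repeats that tethers BMPs, had 167, 316 and 319 against 20, 30 and 49. Both were called higher in Col6a1+ CAFs, with log2FC values of 2.42 (SE 0.39) and 3.01 (SE 0.46), limma adjusted p of 0.00656 and 0.00558, and 0.09 and 0.0612 with the block. In the other direction, the chordin relative Chrdl2 had 0, 12 and 0 normalized counts in Col6a1+ CAFs and 109, 74 and 19 in Col6a1- CAFs. Chrdl2, chosen after its values were seen, had a log2FC of -4.54 (SE 1.19) and a limma adjusted p of 0.0602, and passed in 5 of 15 other fits.

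Of 3 proteases that cleave chordin, Tll2 was at 0 in all libraries and Bmp1 was called. Bmp1, a tolloid-type metalloproteinase, had 505, 430 and 682 normalized counts in Col6a1+ CAFs and 197, 233 and 137 in Col6a1- CAFs. Every Col6a1+ library was higher (log2FC 1.51, SE 0.33, limma adjusted p = 0.0274, or 0.134 in the blocked fit).

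Among BMP, GDF and activin ligands, 14 of 19 were tested, with 2 called higher and 1 lower and a median log2FC of 0.50. Bmp4, a main target of gremlin and noggin, was the most abundant, with 1352, 1338 and 1166 normalized counts in Col6a1+ CAFs and 671, 545 and 192 in Col6a1- CAFs. Its libraries did not overlap, but it was not called (log2FC 1.63, SE 0.43, limma adjusted p = 0.059). Bmp4 was called in 3 of 15 other fits, among them the blocked fit over genes averaging at least 10 counts (adjusted p = 0.0171). Without Col6a1- replicate 3 its log2FC was 1.08. On the other strand Bmp4 overlaps the antisense gene Gm15222, which had 53, 6 and 9 against 23, 10 and 3 normalized counts. Bmp3, which encodes an atypical BMP that opposes other BMPs, had 38, 92 and 63 against 5, 2 and 6 normalized counts, and Bmp5 had 407, 851 and 418 against 225, 190 and 132. Both were called higher in Col6a1+ CAFs, with log2FC values of 3.62 (SE 0.75, limma adjusted p = 0.0225, or 0.108 in the blocked fit) and 1.56 (SE 0.37, limma adjusted p = 0.0425, or 0.119 in the blocked fit). Gdf11, whose product signals through activin receptors and is bound by follistatin, moved the other way. It had 38, 90 and 113 normalized counts in Col6a1+ CAFs and 360, 234 and 410 in Col6a1- CAFs (log2FC -2.14, SE 0.45, limma adjusted p = 0.0242, or 0.116 in the blocked fit). The epithelial sums given above were also higher in Col6a1- CAFs, and their part in the level of Gdf11 was not tested.

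All 12 receptors and co-receptors were tested, and 2 were called higher and 0 lower in Col6a1+ CAFs. Bmpr2, the type II receptor for BMPs, had 749, 490 and 532 against 239, 217 and 233 normalized counts (log2FC 1.33, SE 0.29, limma adjusted p = 0.0283, or 0.0855 in the blocked fit). Eng, a co-receptor best known from endothelium, had 331, 266 and 156 against 32, 92 and 45 (log2FC 2.21, limma adjusted p = 0.0265, or 0.118 in the blocked fit), and the endothelial marker sum was 64 to 164 against 128 to 313. Eng overlaps Fpgs on the other strand and, on its own strand, the snoRNA gene Gm26236, so its counts are uncertain. Gm26236 had 0, 73 and 43 against 5, 23 and 9 normalized counts. Of 6 Smad transducers 0 were called (limma), and 0 had an unadjusted p under 0.05. The most abundant of them, Smad4, had 419, 294 and 284 against 427, 414 and 348 normalized counts.

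Of 9 target genes of BMP signalling 3 were called higher and 0 lower, with a median log2FC of 0.75. The other 6 were not called. By sign, 6 of the 9 had a positive log2FC and 3 a negative one (Smad7, Msx1 and Msx2). Id1 overlapped between the subsets, with 1535, 1163 and 1219 against 1234, 956 and 999 normalized counts (log2FC 0.295, limma adjusted p = 0.631). The uncalled genes were named here after their values were seen. Id3, an inhibitor of basic helix-loop-helix factors, had 13696, 7497 and 7820 normalized counts in Col6a1+ CAFs and 3419, 2211 and 2630 in Col6a1- CAFs (log2FC 1.78, SE 0.33, limma adjusted p = 0.0129, or 0.0612 in the blocked fit). Its relative Id4 had 256, 82 and 99 against 17, 33 and 33 (log2FC 2.23, SE 0.55, limma adjusted p = 0.0462, or 0.189 in the blocked fit). The transcription factor gene Atoh8 had 187, 171 and 140 against 10, 18 and 31 (log2FC 3.14, SE 0.50, limma adjusted p = 0.00677, or 0.0797 in the blocked fit). All 3 were higher in every Col6a1+ library. Over the 6 lists together, 56 of 66 genes were tested, 11 were called higher and 1 lower, and their median log2FC was 0.66, beside 0.08 for the 9 antagonists and -0.27 for all genes.

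**Figure D4:**
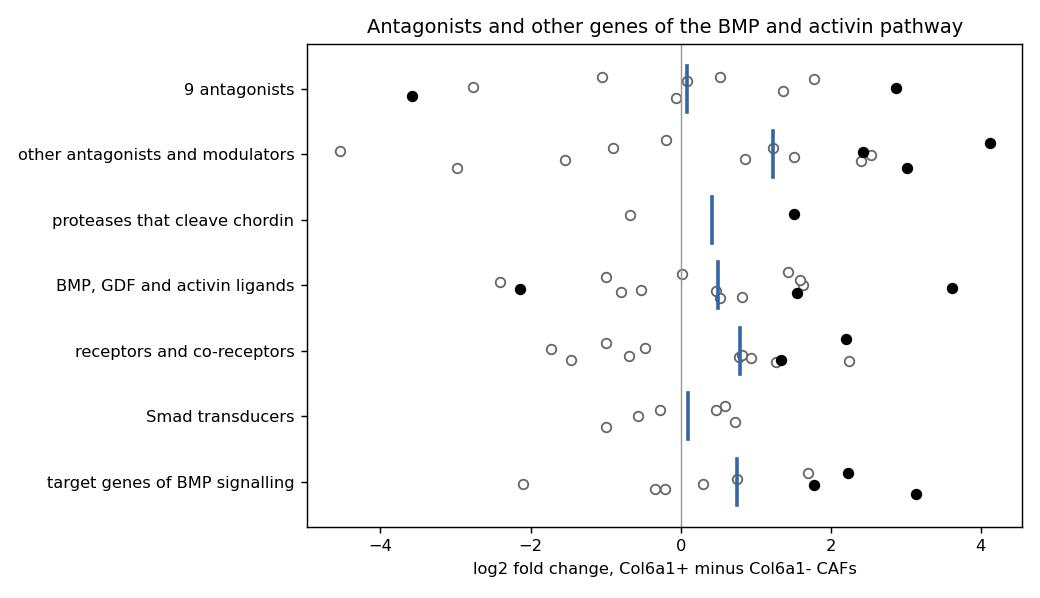
Log2 fold changes (Col6a1+ minus Col6a1- CAFs) of the 9 antagonists and of each tested gene of the 6 other pathway lists, filled where called by limma and open where not, with a blue bar at each list's median. The antagonists lie on both sides of 0 (median 0.08), and 11 of the 12 called genes of the other lists lie to the right of 0.

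Genes with the most similar pattern were taken from 13514 candidates by Pearson's r of log2(normalized count + 1) over the 6 libraries, as a description only. All values rest on the same 6 libraries and are the highest of many candidates. For Fstl1 these were Eif1b (0.999), Col6a4 (0.997) and Dusp3 (0.996), and for Smoc2 they were 6430548M08Rik (0.996), Foxa2 (0.996) and Skap2 (0.994). Foxa2 encodes a transcription factor known from endoderm-derived epithelium. Grem1 was most like Stmn2 (0.994), AC117232.1 (0.993) and Mtx2 (0.992). For Fst the genes were Arhgef15, 2900093K20Rik and Srsf6 (0.995 to 0.998), and those for Smoc1 included Smim10l1 (0.991) and Prkar1b (0.985). Chrdl1 was most like Smim11, Mavs and Klhl5 (0.986 to 0.995), Twsg1 like Vps29, Rsph9 and Bean1 (0.970 to 0.985), and Nog like Slc35c2, Snord14a and Polm (0.981 to 0.985).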

How the data were processed

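RNA of sorted cells was sequenced as 3′ mRNA libraries (QuantSeq). The authors mapped reads with TopHat2 and, for reads left unmapped, Bowtie2 to mm10, counted them per gene with GenomicRanges and normalized with DESeq through metaseqR. The deposited values are the authors' log2 of normalized counts plus 1, and all were whole numbers after back-transformation (tolerance 1e-06). As these values are already normalized, they do not give the raw depth. Whether counting used strand is not given in the sources used here. The authors' p-values, FDR and fold changes were not used, nor were 6 further columns of per-sample values.

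Groups came from the labels. Genes whose normalized counts summed to at least 1 were fitted with limma 3.58.1 (R 4.3.3; lmFit, eBayes with trend), with Benjamini-Hochberg adjustment over all genes, after the script had been tested on simulated data. Fold changes on the log2(value + 1) scale understate changes of low genes. Zeros were taken to allow up to 3 normalized counts, for counting error only. That limit holds for raw counts, and the scaling of each library is unknown. The labels give replicate numbers but do not state that these pair the samples. The study reports 3 samples for sequencing, each from a pool of tumors of several mice. If each pool gave both subsets, libraries of 1 pool are paired, and the main fit, which treats the 6 libraries as independent, ignores this. Deviations from the group means correlated at r = 0.245, 0.125 and 0.144 for the same number, over 13515 genes with a mean of at least 10. For different numbers r ran from -0.245 to 0.150, and 0.150 exceeded 0.125 and 0.144. These correlations cannot establish pairing, since deviations within a group are not independent. A fit with the number as a block was made as an alternative, and pairs here means libraries with the same number. The p-values measure the spread between pools of tumors.

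The members and lists were chosen with earlier results of these data known. Text names the 9 antagonists, the called genes and the most abundant gene of each pathway list, and the 3 genes most like each antagonist with a mean of at least 10, with exceptions stated; a few genes that meet this rule are not reported here. Itgam matched 2 rows and was left out of the immune markers. Promoters came from RefSeq (GRCm38.p6). Alternatives changed scaling, filter, pseudocount (0.1 or 5), weights, voom, block, library and call criterion.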

Additional observations from a re-analysis of the deposited data

How the results depend on the processing

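Of the 9 antagonists 2 were called by limma. Without a filter and with the replicate block 0 were called (3 had an unadjusted p under 0.05 in each), leaving out 1 library gave 0 to 2, and a looser criterion (unadjusted p under 0.05 and a change beyond 1 on the log2 scale in either direction) gave 5 (2 higher, 3 lower). By the looser criterion, 6.09% of all genes tested were higher and 8.61% lower. The 0 arose without any Col6a1+ library and without Col6a1- replicate 1, and 1 was called without Col6a1- replicate 3. Of the other pathway genes 12 were called, 1 without a filter, 0 with the replicate block (25 at an unadjusted p under 0.05), 0 to 3 with 1 library left out, and 23 by the looser criterion (18 higher, 5 lower). Over all genes, 703 higher and 517 lower calls became 0 and 0 with the block (1851 and 2567 at an unadjusted p under 0.05), 21 and 7 without a filter, 1031 and 969 with array quality weights, and 0 without any Col6a1+ library or Col6a1- replicate 1. They became 98 and 166 without Col6a1- replicate 2, and 63 and 125 without Col6a1- replicate 3. The block ended every call over 26402 genes and, with a mean of at least 10, kept those of Fstl1 and Smoc2. Nog changed sign with voom (-0.16), with a pseudocount of 0.1 (-0.86) and among the fits without 1 library (-1.14 to 1.49). Chrd did so with array quality weights (0.65), a pseudocount of 5 (0.16) and without 1 library (-0.83 to 1.08). The other 7 antagonists kept their sign throughout. The cause of these changes was not tested. Col6a1+ replicate 1 had the fewest detected genes and the lowest array weight (0.357).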
